A study of Mus musculus with 6 samples.

Results

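Leukotrienes and prostaglandins are lipid mediators made from arachidonate, and the genes of their synthesis were described here in activated blood T cells sorted by CD11c. The members were 10 genes chosen by name, Pla2g4a, Alox5, Alox5ap, Lta4h, Ltc4s, Ptgs1, Ptgs2, Hpgds, Alox15 and Cysltr1. All probe sets whose single gene symbol is exactly one of these names were taken, which gave 12 of the 45141 probe sets of the array and 9 of the 17097 genes with a name of their own on it. Of the 10 names Ptgs1 had no probe set of this kind and was not analysed here. The genes were chosen with the difference between CD11c+ and CD11c- cells already known. Their differences are therefore a description, given without a test of their own.

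Blood was taken from 3 female C57BL/6 mice, labelled A, C and D, aged 6 to 8 weeks and kept free of specific pathogens. From each mouse CD11c+ and CD11c- cells were sorted out of the CD3+ CD62L- CD44high gate, 300 cells a sample, and the amplified RNA of each was read on a single-colour Affymetrix array, 6 in all. The labels describe a group of females given 3 mg of Depo-Provera, a progestin, subcutaneously 5 days before blood was taken (the methods give a day more), so both fractions shared this treatment and no untreated mice were compared. The labels list antibodies to CD3, CD4, CD62L, CD44 and CD11c for the sort, and none to a marker of B cells or basophils. The methods describe the sorted cells as almost wholly pure. The values are log2 signals after RMA, the authors' normalization, which makes the arrays' distributions nearly alike. The background level was set at 5.75, under which lay the means of 95% of 36 genes that belong to other tissues. In such bulk samples a larger share of cells of one type cannot be told apart from more RNA per cell.

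Cytosolic phospholipase A2 frees arachidonate from membranes. The 5-lipoxygenase enzyme, helped by its membrane partner FLAP, turns arachidonate into leukotriene A4. That is then made into leukotriene B4, an attractant of leukocytes, or into the cysteinyl leukotrienes, which contract smooth muscle and make vessels leak. Cyclooxygenases start the other branch, and terminal synthases finish each prostaglandin. Myeloid cells, mast cells and basophils are known for this pathway, while T cells are better known for answering its products through receptors.

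The promoters of Alox5 and Ptgs2 are shown because their products open the leukotriene and the prostaglandin branch and the values of both genes, given further on, were higher in CD11c+ cells. RefSeq (GRCm38.p6) held promoter windows for 7 of the 10 genes, from 250 bases before the annotated start to 50 after it. The Alox5 window is chr6:116461129-116461428 on the minus strand and the Ptgs2 window chr1:150099781-150100080 on the plus strand, and capitals mark matches to the motifs named after them.
Alox5: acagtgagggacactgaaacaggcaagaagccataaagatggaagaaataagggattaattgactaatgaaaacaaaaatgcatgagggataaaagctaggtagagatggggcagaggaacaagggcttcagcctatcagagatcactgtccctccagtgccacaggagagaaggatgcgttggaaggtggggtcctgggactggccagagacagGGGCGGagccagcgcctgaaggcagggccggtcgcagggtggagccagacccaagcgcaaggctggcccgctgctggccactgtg
Ptgs2: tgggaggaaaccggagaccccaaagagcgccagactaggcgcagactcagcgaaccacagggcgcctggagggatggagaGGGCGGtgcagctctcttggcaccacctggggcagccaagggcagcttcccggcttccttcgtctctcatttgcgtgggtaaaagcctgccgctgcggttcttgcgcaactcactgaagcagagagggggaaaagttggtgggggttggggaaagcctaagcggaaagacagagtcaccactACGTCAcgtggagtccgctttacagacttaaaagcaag
Both strands were searched for TATAAA (the core promoter box), GGGCGG (the GC box), TGACGT (the cAMP response element in part), AGATAA (the site of GATA factors) and GAGGAAG (the site of PU.1 and other ETS factors), none of which overlapped in these windows. Both windows held GGGCGG, found in 35.7% of the 32851 promoter windows of the table. That of Ptgs2 also held TGACGT on the opposite strand, found in 7.51% of all windows. No other motif of the search was in either window, and these matches say nothing of binding in the sorted cells.

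Itgax, the gene of CD11c, had log2 values of 8.93, 9.06 and 8.93 in the CD11c+ cells of mice A, C and D, against 5.80, 3.88 and 4.12 in the CD11c- cells. The values followed the sort in each mouse, and differed by 4.37 ± 0.44 on the log2 scale (SE, adjusted p = 0.0387 in limma). Cd3e, Cd3d, Cd3g and Cd247, the CD3 chain genes, were above background in both fractions, with log2 fold changes between -1.19 and -0.49, none of which passed the test (adjusted p between 0.0611 and 0.214 in limma). Over the whole array CD11c+ cells had 432 probe sets called higher and 76 called lower at an adjusted p of 0.05 in limma with the mouse as a block. These counts were 684 and 211 without the block. No probe set passed without mouse A.

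Among the members, the genes of 5-lipoxygenase and FLAP, of the other lipoxygenase Alox15 and of the inducible cyclooxygenase Ptgs2 had higher values in CD11c+ cells in 3 of 3 mice. For Alox5ap the difference was 6.69 ± 0.14 on the log2 scale (log2 fold change ± SE, n = 3 mice, as in the values below). The CD11c- values of these genes were under the background level, so a bound, where one is given, is firmer than the fold change. The genes of the enzymes that complete the mediators, Lta4h, Ltc4s and Hpgds, had no such gap, and neither had Pla2g4a, whose product supplies the arachidonate. The counts that follow come from the fit over the whole array. Since the members were chosen with this contrast known, nothing is read from their counts. At an unadjusted p under 0.05 in limma, 5 of the 12 member probe sets were higher and 0 lower. Over the array 2833 of the 45141 probe sets were higher and 3254 lower at that threshold. Of the 12 member probe sets, 4 were among those called higher, and 0 among those called lower. Of all probe sets 0.957% were called higher and 0.168% lower. The count of member probe sets called was 0 without mouse A and 2 without mouse C (Alox5ap and Alox15). It was 3 without mouse D (the probe sets of Alox5, Alox5ap and Alox15), and 5 without the mouse block. The fractions did not overlap at 5 of the 12 probe sets, all with higher values in CD11c+ cells. Over the array this held for 6.40% of probe sets in that direction and 12.5% in the other. The median log2 fold change was 0.25 over the 12 probe sets and -0.09 over the whole array.

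**Figure D1:**
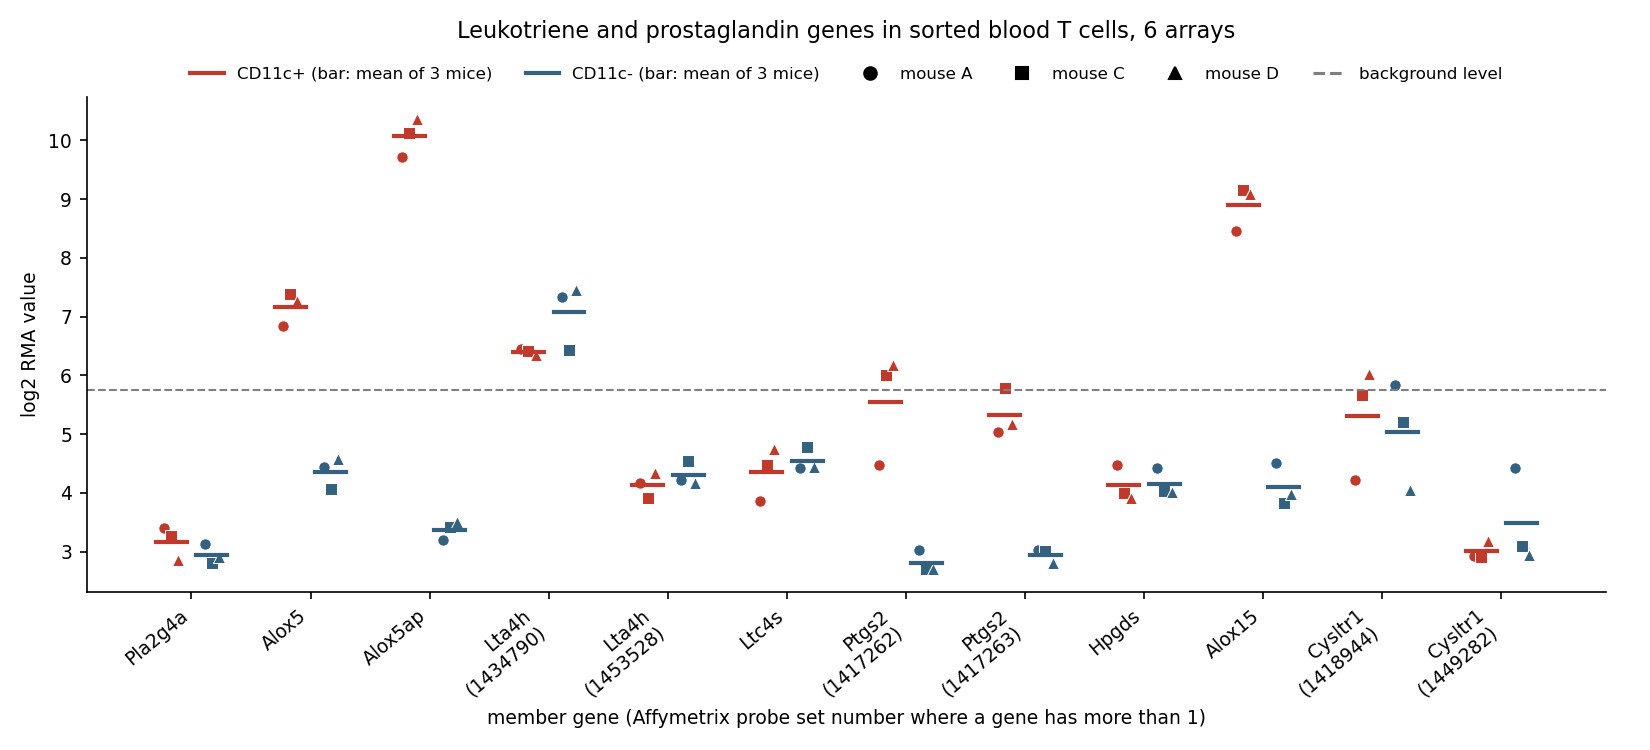
Log2 RMA values (vertical axis) of the 12 member probe sets (horizontal axis) on the 6 arrays, with CD11c+ cells in red left of CD11c- cells in blue, marker shape for the mouse, short bars for means and a dashed line marking background at 5.75. The red points of Alox5ap, Alox15 and Alox5 lie above that line and the blue ones below it.

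The step before both branches showed no such gap. Pla2g4a, the gene of cytosolic phospholipase A2, had log2 values of 3.40, 3.27 and 2.85 in the CD11c+ cells of mice A, C and D, against 3.13, 2.80 and 2.91 in CD11c- cells. The fractions overlapped, and all 6 values lay under the background level. The log2 fold change was 0.22 ± 0.16.

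In the leukotriene branch Alox5 and Alox5ap stood apart from the genes that follow them. Alox5, which encodes 5-lipoxygenase, had log2 values of 6.84, 7.38 and 7.27 in the CD11c+ cells of mice A, C and D, against 4.44, 4.06 and 4.57 in CD11c- cells. The fractions did not overlap, and only the CD11c+ values were above background. The log2 fold change was 2.81 ± 0.22, and against the background level the CD11c+ mean was at least 2.67-fold higher. The Alox5 window printed above holds the GC box match close to the annotated start and no TATAAA.

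Alox5ap encodes FLAP, a membrane protein that presents arachidonate to 5-lipoxygenase. It had log2 values of 9.71, 10.13 and 10.36 in the CD11c+ cells of mice A, C and D, against 3.20, 3.42 and 3.50 in CD11c- cells. The 3 differences within a mouse were 6.51, 6.71 and 6.86, which differ less among themselves than those of Alox5 (2.40, 3.33 and 2.71). Against the background level the CD11c+ mean was at least 19.9-fold higher.

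Lta4h, the gene of the hydrolase that makes leukotriene B4, was the member with a mean above background in both fractions. Its brighter probe set (1434790_PM_a_at) had log2 values of 6.44, 6.41 and 6.34 in the CD11c+ cells of mice A, C and D, against 7.33, 6.43 and 7.45 in CD11c- cells. The differences were -0.90 and -1.11 in mice A and D and -0.02 in mouse C, and the log2 fold change was -0.68 ± 0.26. The CD11c+ values had an SD of 0.05, against 0.56 in CD11c- cells. The other probe set (1453528_PM_at) was not above background in either fraction and had a log2 fold change of -0.17 ± 0.20.

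Ltc4s encodes the synthase of leukotriene C4, the first of the cysteinyl leukotrienes. It had log2 values of 3.86, 4.47 and 4.75 in the CD11c+ cells of mice A, C and D, against 4.43, 4.78 and 4.44 in CD11c- cells. The fractions overlapped under the background level, the difference had the opposite sign in mouse D, and the log2 fold change was -0.19 ± 0.22.

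**Figure D2:**
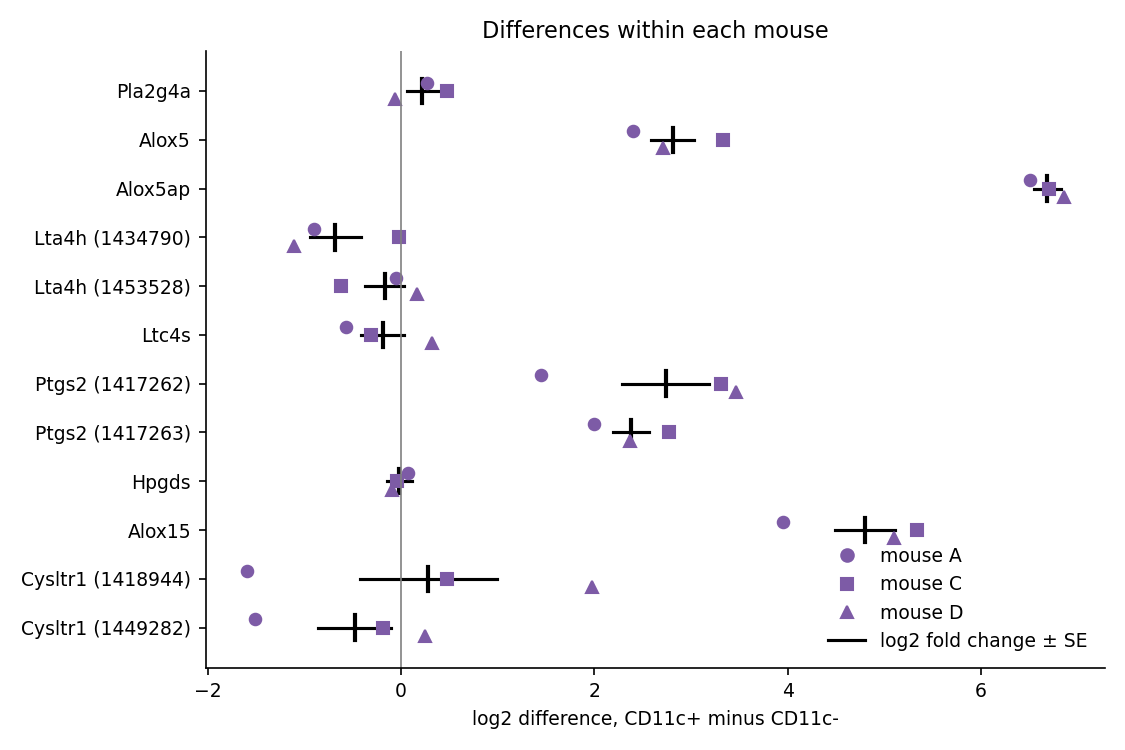
Log2 difference between CD11c+ and CD11c- cells (horizontal axis) of each member probe set (vertical axis, with the probe set number where a gene has more than 1), with marker shape for the mouse, and the log2 fold change as a tick with its standard error as a bar. The 3 mice of Alox5ap lie between 6.51 and 6.86, while those of Cysltr1 (1418944_PM_at) spread from -1.60 to 1.98.

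In the prostaglandin branch the inducible enzyme had the gap and Hpgds, the terminal synthase among the members, did not. Ptgs2, which encodes cyclooxygenase-2, was measured by 2 probe sets. The first (1417262_PM_at) had log2 values of 4.47, 6.01 and 6.18 in the CD11c+ cells of mice A, C and D, against 3.02, 2.70 and 2.71 in CD11c- cells. The second (1417263_PM_at) had 5.03, 5.78 and 5.17 in CD11c+ cells, against 3.03, 3.01 and 2.80 in CD11c- cells. Neither pair of fractions overlapped. The log2 fold changes were 2.74 ± 0.45 and 2.38 ± 0.19, and only the second was among the probe sets called, with less spread between mice. Both CD11c+ means, 5.55 and 5.32, were under the background level, so no bound on the fold is given. This is the gene whose window above holds 2 matches, the GC box and the part of the cAMP response element.

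Hpgds, the gene of the haematopoietic prostaglandin D synthase of mast cells and some other leukocytes, had log2 values of 4.48, 3.99 and 3.91 in the CD11c+ cells of mice A, C and D, against 4.42, 4.03 and 4.01 in CD11c- cells. Each mouse had nearly the same value in both fractions, all under the background level. The log2 fold change was -0.02 ± 0.13.

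Alox15, the gene of a lipoxygenase that adds oxygen at other positions of arachidonate, had log2 values of 8.45, 9.16 and 9.08 in the CD11c+ cells of mice A, C and D, against 4.50, 3.82 and 3.98 in CD11c- cells. The fractions did not overlap, and the log2 fold change was 4.80 ± 0.31. Only the CD11c+ values were above background, and against that level their mean was at least 8.86-fold higher.

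Cysltr1, the receptor of cysteinyl leukotrienes, was the member that varied most between mice. Its brighter probe set (1418944_PM_at) had log2 values of 4.22, 5.67 and 6.03 in the CD11c+ cells of mice A, C and D, against 5.83, 5.21 and 4.05 in CD11c- cells. The CD11c+ cells were lower by 1.60 in mouse A and higher by 0.47 in mouse C and by 1.98 in mouse D. Of the probe sets with a mean within 0.25 of its own, 96.6% had a smaller SD in CD11c+ cells and 93.0% in CD11c- cells. The other probe set (1449282_PM_at) had a high value in 1 array, 4.43 in the CD11c- cells of mouse A. In both probe sets the fractions overlapped, with log2 fold changes of 0.28 ± 0.71 and -0.48 ± 0.38.

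The members with a gap shared an order between mice. At all 4 called probe sets, and at the other one of Ptgs2, the CD11c+ value of mouse A was the lowest of the 3 mice. The same held for 263 of the 432 probe sets called higher over the array, or 60.9%, against 16.2% for mouse C and 22.9% for mouse D. Ltc4s and the brighter probe set of Cysltr1, with no gap, were also lowest in the CD11c+ cells of mouse A, while Hpgds, Pla2g4a and the brighter probe set of Lta4h were highest there.

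Most other genes of the pathway did not pass the test. Of 60 further genes of eicosanoid synthesis, breakdown and reception with a probe set, 1 was higher and 0 were lower in CD11c+ cells at an adjusted p of 0.05 in limma, against 1.40% higher and 0.222% lower over all genes. The median log2 fold change of these genes was -0.06, beside -0.09 over all genes. For 41 of the 60 both means were under the background level.

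The gene that rose was Cyp4f18, whose enzyme oxidises leukotriene B4 in mouse neutrophils. It had log2 values of 8.11, 8.29 and 8.31 in the CD11c+ cells of mice A, C and D, against 4.64, 4.21 and 4.56 in CD11c- cells. The log2 fold change was 3.76 ± 0.17 (adjusted p = 0.00654 in limma), or 3.91 with an adjusted p of 0.0977 without mouse A. Over the alternatives fitted to single probe sets that p ran from 0.000158 to 0.0977. The CD11c+ mean was at least 5.60-fold above the background level.

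**Figure D3:**
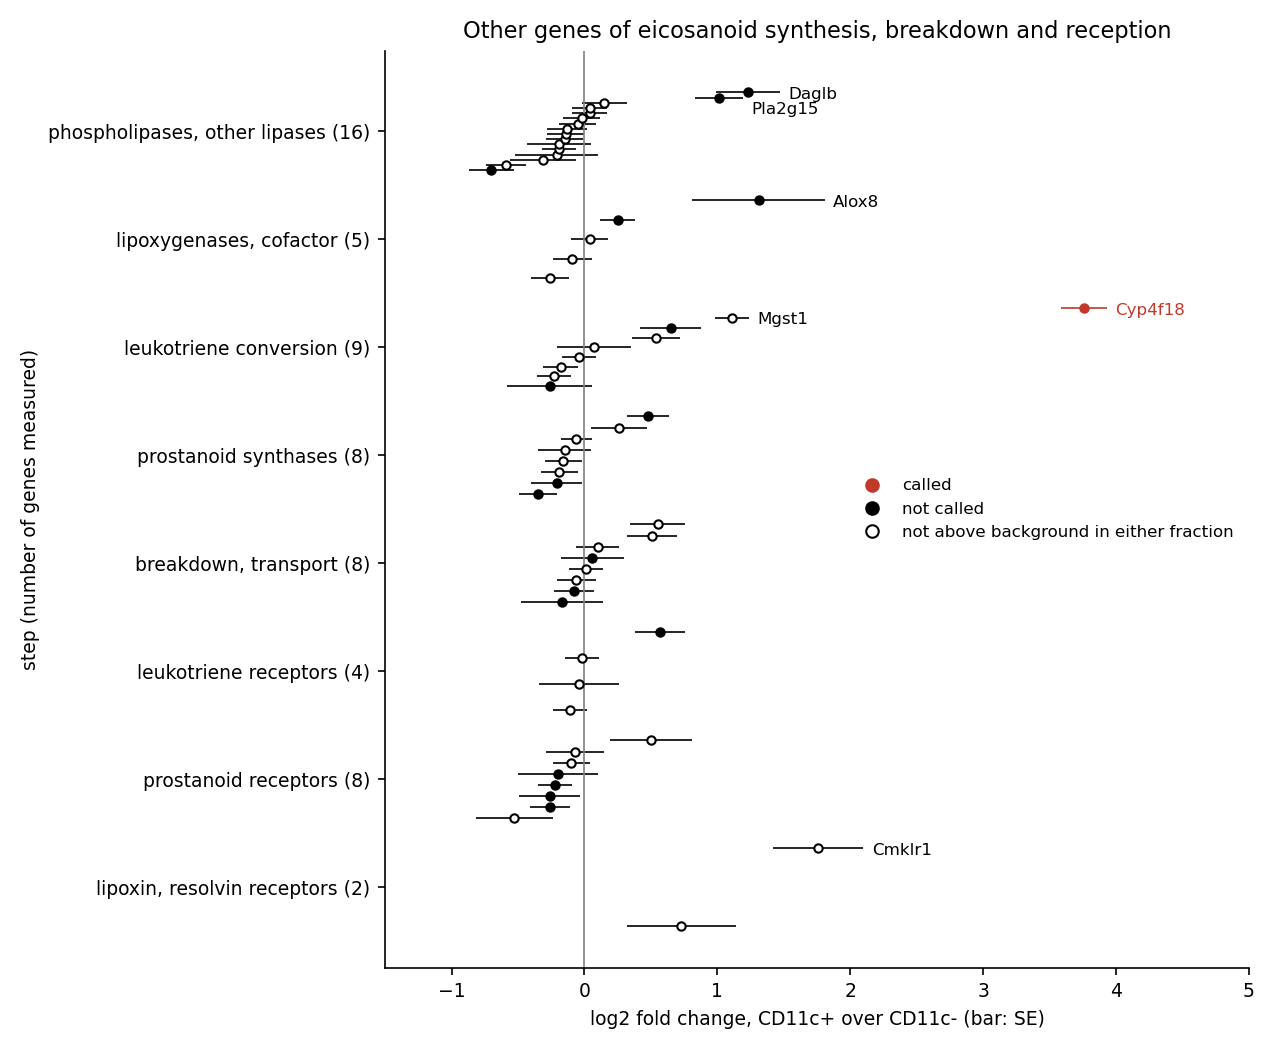
Log2 fold change of CD11c+ over CD11c- cells with its standard error (horizontal axis) for 60 other genes of the pathway by step (vertical axis, number of genes in brackets), red for the gene called and open circles for genes not above background in either fraction. Cyp4f18 lies at 3.76 and the other genes between -0.70 and 1.76.

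Among the phospholipases and other lipases, 0 of 16 genes passed. The log2 fold change of Daglb, a diacylglycerol lipase, was 1.23 (adjusted p = 0.132 in limma), and that of Pla2g15, a lysosomal phospholipase, 1.01 (adjusted p = 0.115). Both were higher in 3 of 3 mice and had CD11c- means under the background level. Pla2g15 was among the genes called with the mouse as a random block. Pla2g6, a calcium-independent phospholipase above background in both fractions, had the lowest value of the step, -0.70, and was lower in 3 of 3 mice (adjusted p = 0.197). Over the 16 genes 2 were higher and 3 lower in 3 of 3 mice, with a median of -0.14. Among the other lipoxygenases and the 5-lipoxygenase partner Cotl1, 0 of 5 passed. Alox8 had 1.31 (adjusted p = 0.376) and Alox12b, a lipoxygenase of skin, -0.26 (adjusted p = 0.544).

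Of the 9 genes of leukotriene conversion and export, Cyp4f18 was the 1 that passed. Mgst1, a microsomal glutathione transferase of the same family as Ltc4s and Alox5ap, came to 1.11 on the log2 scale (adjusted p = 0.0515 in limma), with both means under the background level. Mgst1 was among the genes called without the mouse block. Abcc1, an exporter of leukotriene C4, had log2 means of 8.34 ± 0.33 in CD11c+ cells and 7.68 ± 0.39 in CD11c- cells (mean ± SD over 3 mice) and did not pass (adjusted p = 0.346 in limma).

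Of the 8 prostanoid synthase genes none passed, in either direction. Tbxas1, thromboxane synthase, came to 0.48 on the log2 scale (adjusted p = 0.317 in limma) and Ptges3, a cytosolic prostaglandin E synthase and cochaperone, -0.35 (adjusted p = 0.393). The fractions did not overlap at either gene, with Tbxas1 higher and Ptges3 lower in CD11c+ cells in 3 of 3 mice. Tbxas1 was above background in CD11c+ cells only, and Ptges3 in both fractions. Of the 8 genes of breakdown and transport none passed either. Hpgd, the dehydrogenase that inactivates prostaglandins, had 0.55 (adjusted p = 0.393) and Ptgr1, a reductase that inactivates leukotriene B4, 0.51 (adjusted p = 0.374), with all their means under the background level.

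The receptors gave 0 calls among 4 for leukotrienes, 8 for prostanoids and 2 for lipoxins and resolvins. Ltb4r1, the high-affinity receptor of leukotriene B4, had log2 means of 5.77 ± 0.63 in CD11c+ cells and 5.19 ± 0.27 in CD11c- cells, a difference of 0.57 (adjusted p = 0.321 in limma). Oxgr1 had -0.11 (adjusted p = 0.783). Ptgdr2, a prostaglandin D2 receptor of type 2 T cells, had -0.53 (adjusted p = 0.552) and Ptger3, a prostaglandin E2 receptor, 0.50 (adjusted p = 0.592). Cmklr1, the chemerin receptor, had the largest value of the receptors, 1.76 (adjusted p = 0.129), and Fpr2 0.73 (adjusted p = 0.556). Cmklr1, Fpr2, Oxgr1, Ptgdr2 and Ptger3 had means under the background level in both fractions.

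Some genes of other cell types differed between the fractions as well. Of 17 measured genes of the basophil and mast cell list, 10 were called higher, with a median log2 fold change of 4.0. Their summed linear signal ran from 5385 to 9003 in CD11c+ cells, against 617 to 663 in CD11c- cells. The brightest genes weigh most in such a sum, here Csf1 and Il18rap, which were above background in both fractions. Their log2 means were 10.74 and 9.95 in CD11c+ cells, and 5.77 and 8.27 in CD11c- cells. Ms4a2, a chain of the IgE receptor, was higher by 6.35 on the log2 scale (adjusted p = 0.00554 in limma), and Hdc, which makes histamine, 4.82 (adjusted p = 0.00629), while Kit, Mcpt4, Tpsb2 and Cma1, defining genes of mast cells, were not above background in either fraction. Of 14 genes of monocytes and macrophages 6 were called higher, with a median of 2.49. Summed signals were 4787 to 6131 in CD11c+ cells, against 1455 to 1650 in CD11c- cells. Ms4a6c, a bright gene in these sums, was lower in CD11c+ cells in 3 of 3 mice. Its log2 means were 8.68 and 9.70 in CD11c+ and CD11c- cells. Lyz2, the lysozyme of myeloid cells, had log2 means of 10.55 in CD11c+ cells and 3.60 in CD11c- cells, while Cd14, a receptor of monocytes for bacterial lipid, was not above background in either fraction. Of 9 genes of dendritic cells, 4 were called higher, Itgax, the gene of the sort, H2-Aa, H2-Eb1 and Cd209a. The log2 fold change of Cd209a was 5.34 (adjusted p = 0.0186 in limma). Summed signals were 8063 to 10172 in CD11c+ cells, against 635 to 1336 in CD11c- cells. Zbtb46 and Xcr1 of this list were not above background in either fraction. Flt3 and Batf3 were above it in CD11c+ cells only and higher in 3 of 3 mice. They had log2 fold changes of 1.35 and 1.10 and were not called (adjusted p = 0.173 and 0.12 in limma).

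Of the 13 T cell genes 2 were called lower, Cd5 and Cd6, with a median log2 fold change of -0.69 and summed signals of 7673 to 9485 in CD11c+ cells, against 13995 to 15064 in CD11c- cells. Of 11 NK cell genes 4 were called higher and 1 lower, with sums of 5149 to 5740 in CD11c+ cells, against 2579 to 2692 in CD11c- cells. Of 8 B cell genes 1, Pax5, was called higher, and the median log2 fold change was 0.78. Their sums were 619 to 1486 in CD11c+ cells, against 587 to 1413 in CD11c- cells. These sums include Blk, lower in CD11c+ cells in 3 of 3 mice, with log2 means of 7.64 and 8.92 in CD11c+ and CD11c- cells. Cd79a, Ms4a1 and Pax5 were higher in 3 of 3 mice without overlap, by 2.64, 2.35 and 2.03 on the log2 scale. Both means of Ms4a1 were under the background level. In the lists of neutrophils (12 genes, 1 called higher), eosinophils (6 genes, 0 called) and platelets (10 genes, 1 called higher), S100a8, S100a9, Epx, Prg2, Pf4 and Ppbp had means under the background level in both fractions. Other genes of these lists were higher in CD11c+ cells in 3 of 3 mice. In the neutrophil list the gene called was Csf3r, the receptor of G-CSF, with a log2 fold change of 2.36, and Cxcr2, a chemokine receptor, had 3.56 (adjusted p = 0.0595 in limma), both above background in CD11c+ cells. In the platelet list it was Itga2b, an integrin chain, with 2.30 and means above background in both fractions. Siglecf of the eosinophil list had 2.30 (adjusted p = 0.0534 in limma) with both means under that level. The neutrophil sums were 418 to 458 in CD11c+ cells, against 178 to 229 in CD11c- cells. The eosinophil sums were 120 to 161 in CD11c+ cells, against 90 to 106 in CD11c- cells, and the platelet sums 626 to 854 in CD11c+ cells, against 508 to 595 in CD11c- cells. Csf1, Csf1r, Csf3r, H2-Aa, H2-Eb1, Gzma and Gzmb in these lists are genes the study picked out on the same arrays. The part of these cell types in the values of the members was not tested.

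**Figure D4:**
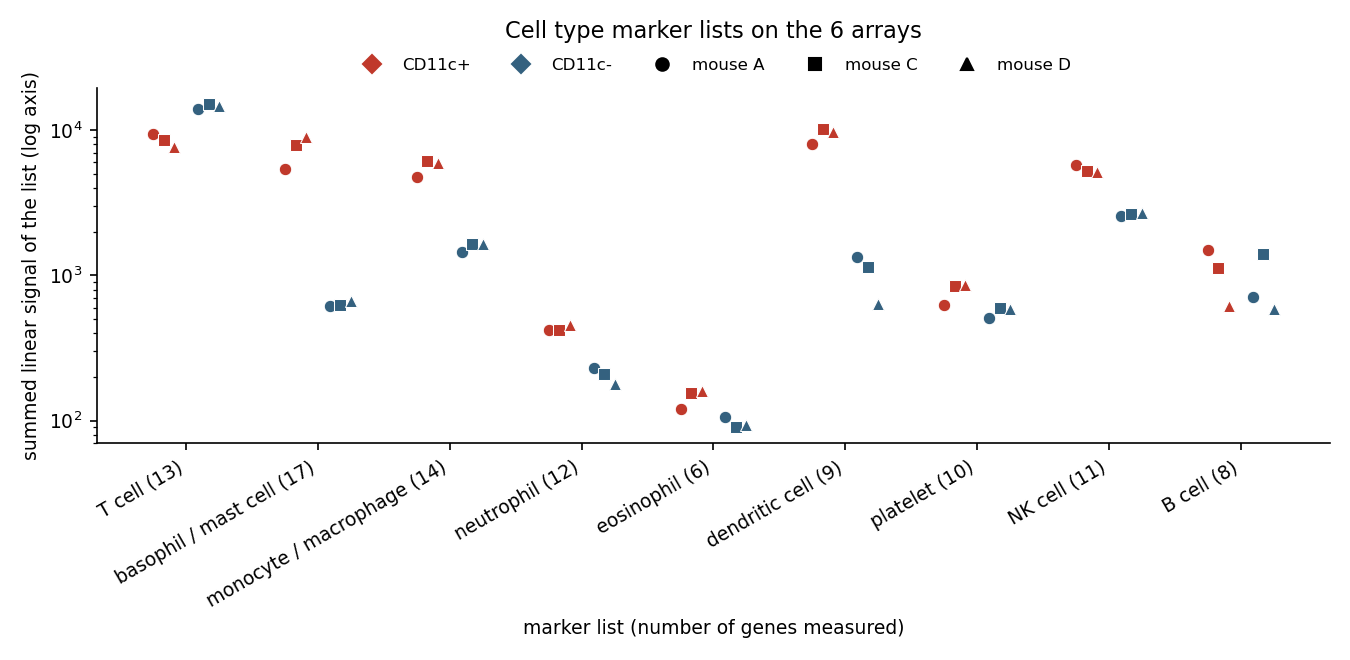
Summed linear RMA signal (vertical log axis) of each cell type marker list (horizontal axis, number of genes measured in brackets) on the 6 arrays, with CD11c+ cells in red left of CD11c- cells in blue and marker shape for the mouse. The basophil and mast cell list runs from 5385 to 9003 in CD11c+ cells, with mouse A lowest, against 617 to 663 in CD11c- cells.

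In the CD11c+ cells of mouse A, where the members with a gap were lowest, the basophil and mast cell genes summed to 5385, against 7966 in mouse C and 9003 in mouse D. The monocyte and macrophage genes summed to 4787 there, against 6131 in mouse C and 5962 in mouse D. Neutrophil genes had 424, 418 and 458 in mice A, C and D, with mouse C lowest. Dendritic cell genes were lowest in mouse A too, with 8063, 10172 and 9647 in mice A, C and D. So were the eosinophil genes (120, 154 and 161) and the platelet genes (626, 852 and 854). Of these, 0 of 6 eosinophil genes and 2 of 10 platelet genes had a CD11c+ mean above background, so both orders rest largely on dim values or few genes. The T cell genes ran the other way, with 9485 in mouse A, 8565 in mouse C and 7673 in mouse D. So did the NK cell genes, with 5740, 5257 and 5149 in mice A, C and D, and the B cell genes, with 1486, 1124 and 619. Whether these orders bear on the values of the members was not tested.

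For each member above background in a fraction, the genes nearest in pattern were found by the root mean square difference of their log2 values over the 6 arrays, each centred on its own mean. This likeness is a description that rests mainly on the gap between the fractions. For Alox5ap the 5 nearest were Ccl3 (0.205), Csf2rb2 (0.207), Ms4a2 (0.225), Ifitm1 (0.25) and C3ar1 (0.348). For Alox15 they were H2-Aa (0.141), Hdc (0.209), Gstm1 (0.231), Lrp1 (0.241) and Tyrobp (0.249). For Alox5 they were Tmem150b (0.115), P2rx1 (0.166), Fgfr1 (0.185), Rnd3 (0.202) and Lat2 (0.22). For Lta4h, whose values spanned a narrow range, they were Fbxw8 (0.081), Hey1 (0.088), Tppp (0.093), Rbm6 (0.098) and Efl1 (0.102).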

How the data were processed

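The authors extracted, normalized and summarized the array signals with RMA, and what they deposited is on a log2 scale, from 2.08 to 12.93. RMA and limma appear in the submitters' processing notes, their versions not being given in the sources used here. Such scaling hides differences in total RNA per cell, and amplifying RNA of few cells can add noise to dim signals. Array medians ran from 4.40 to 4.54.

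All 45141 probe sets and 6 arrays entered 1 fit in limma 3.58.1 (R 4.3.3), with mouse as a block, two-sided p-values adjusted by the Benjamini-Hochberg method, a threshold of 0.05 and no filter. Precision is limited by the 6 arrays, which leave 2 residual degrees of freedom. Pairs come from the mouse named in the labels, and deviations of paired arrays correlated at 0.122, 0.0758 and 0.109. In the platform annotation 28898 probe sets have 1 gene symbol, 551 have several and 15692 have none. For genes other than the members the probe set of highest mean was used. The members and gene lists were chosen with earlier results of these data known. The text names all members, other pathway genes that were called or had the widest gap of their step, nearest genes, leading or defining markers and the sorting genes. Some markers were chosen after their values were seen. A fold written as at least so much sets the CD11c+ mean against the background level.

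The fit was tested on simulated data over 45141 probe sets, with independent normal noise and upward changes only. Each probe set took its spread from the real arrays, capped for the widest, and had the same spread in both fractions. Real fractions can differ in spread, as Itgax did (SD of 0.07 in CD11c+ cells and 1.05 in CD11c- cells), so the rates below need not hold for them. It found 0% of changes of size 1 (log2), 40% of size 2, 68% of size 4 and 92% of size 6, each from 50 probe sets, and 0 of its 100 calls were false. A gene that was not called may thus still differ. Alternatives were the block, the normalization, the variance model, a filter on dim probe sets, the threshold, the choice among probe sets of a gene and leaving out each mouse.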

Additional observations from a re-analysis of the deposited data

How the results depend on the processing

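The log2 fold changes of the members were recomputed without the block, after cyclic loess, with arrays centred on their median, with probe sets of a gene averaged and without each mouse. Dropping the block cannot move a balanced fold change, and leaving out 1 of 3 mice can move it only in part. Over the runs without 1 mouse the called members had 2.55 to 3.02 (Alox5), 6.61 to 6.78 (Alox5ap), 4.53 to 5.22 (Alox15) and 2.19 to 2.57 (Ptgs2, 1417263_PM_at). Some members that were not called moved across 0. Cysltr1 (1418944_PM_at) had 1.22 without mouse A and -0.57 without mouse D, and -0.10 when its probe sets were averaged, against 0.28 with all mice. Its other probe set had 0.03 without mouse A, Lta4h (1453528_PM_at) had 0.05 without mouse C, and Hpgds had 0.06 after cyclic loess.

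Counts of calls moved more. Leaving out 1 mouse in turn gave 0 to 348 probe sets higher and 0 to 44 lower over the array, 0 to 3 member probe sets and 0 to 1 of the other pathway genes. The lowest counts came without mouse A, where 2796 probe sets were higher and 2767 lower at an unadjusted p under 0.05 in limma, 5 of the higher being members. Without the mouse block 684 were higher and 211 lower, with 2 other pathway genes. With the mouse as a random block they were 812 and 316, with 3 such genes (Pla2g15, Mgst1 and Cyp4f18), and with a trended variance 684 and 207, with 2. Lower calls were 41 after cyclic loess and 140 among the brighter probe sets (mean over the median), a filter that kept 5 of the 12 member probe sets. At an adjusted p of 0.01 there were 123 higher and 2 lower, 1 of them a member, Alox5ap. When probe sets of a gene were averaged, 2 other pathway genes were called, Cyp4f18 and Cmklr1. Member calls in the 2 fits with a different block and with the trended variance numbered 5, the added one being the other Ptgs2 probe set. The cause of these moves was not tested, and nothing is read from the counts of members. The CD11c- values of Alox5, Alox5ap, Alox15 and Ptgs2 were under the background level, which limits how well their folds are known.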
